A study of Mus musculus with 7 samples.

Results

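Immunoglobulin variable (V) gene segments were examined in lung (right lobes) from mice given bleomycin, with or without hyperbaric oxygen (HBO) exposure. The segments were selected by gene type from the GENCODE vM21 annotation, as entries of type IG_V_gene with an Ighv, Igkv or Iglv symbol. This gave 216 of the 55401 genes counted, made up of 113 heavy chain, 100 kappa chain and 3 lambda chain segments. The annotation alone picked the members, but the group was put forward with earlier results of these mice known, so the counts of called segments below are descriptive. Another 2 entries of this type with other symbols held 7 reads over all mice and were left out.

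Every mouse was a male C57BL/6 mouse of 6 to 8 weeks that received bleomycin, a cytotoxic antibiotic that injures and scars the lung. The 4 BLM mice had no HBO, and the 3 BLM+HBO mice breathed pure oxygen at 2.5 ATA for 90 min per day over 14 days from day 7. Lungs were taken on day 21, and no mouse without bleomycin was analysed here. The sample records place the BLM mice in the chamber without oxygen pressure while the methods call them untreated, and the sources do not settle this. Counts summed to between 18157161 and 26365969 reads per mouse and libraries of the same group differed by more than sampling noise. Epithelial lung genes such as Sftpc and Scgb1a1 were high in every mouse. Of 11 tested heart muscle genes, 10 were called higher in BLM+HBO at unadjusted edgeR limits, against 3.4% of all tested genes. No tested gene had an edgeR adjusted P below 0.423.

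An antibody consists of heavy chains paired with light chains of the kappa or lambda type. A developing B cell joins a V segment to a J segment, with a D segment between them in heavy chains, and its descendants keep that choice. The V segment encodes most of the antigen-binding domain, and RNA from a V segment therefore reports which B cells and plasma cells were in the tissue. Plasma cells, the antibody-secreting descendants of B cells, hold far more of this RNA than resting B cells. In bulk tissue, fewer cells of a type and less RNA per cell cannot be told apart, and heavy and light chains of a cell cannot be paired.

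The segments on which the results turn are shown by the last 120 bases of their germline coding sequence, from the GENCODE transcripts on GRCm38. Capitals mark the bases that follow the last cysteine codon, where the germline contribution to the CDR3 loop starts. The first set holds the most counted heavy, kappa and lambda segments.
Ighv1-81: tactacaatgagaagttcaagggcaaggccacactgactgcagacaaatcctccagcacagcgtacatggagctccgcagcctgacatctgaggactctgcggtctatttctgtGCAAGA
Ighv1-26: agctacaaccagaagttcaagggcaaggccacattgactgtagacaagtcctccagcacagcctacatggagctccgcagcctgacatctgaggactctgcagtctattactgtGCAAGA
Igkv1-117: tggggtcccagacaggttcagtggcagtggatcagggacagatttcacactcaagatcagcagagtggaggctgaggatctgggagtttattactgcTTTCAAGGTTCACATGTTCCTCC
Igkv1-110: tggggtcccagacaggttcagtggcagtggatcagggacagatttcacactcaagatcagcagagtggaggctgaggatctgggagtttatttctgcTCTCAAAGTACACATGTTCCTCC
Iglv1: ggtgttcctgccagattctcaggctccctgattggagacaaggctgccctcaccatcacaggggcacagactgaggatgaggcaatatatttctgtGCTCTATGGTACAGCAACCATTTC
The next set holds the kappa segments with the smallest P values between the groups.
Igkv4-55: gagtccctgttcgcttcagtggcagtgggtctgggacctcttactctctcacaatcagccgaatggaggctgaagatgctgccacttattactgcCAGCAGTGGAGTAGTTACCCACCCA
Igkv6-15: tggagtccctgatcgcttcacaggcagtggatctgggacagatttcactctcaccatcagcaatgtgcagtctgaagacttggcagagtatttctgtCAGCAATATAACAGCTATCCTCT
The last set holds segments that were abundant in a single mouse.
Ighv12-3: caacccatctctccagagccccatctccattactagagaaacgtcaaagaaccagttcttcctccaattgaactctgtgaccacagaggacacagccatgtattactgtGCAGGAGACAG
Igkv4-91: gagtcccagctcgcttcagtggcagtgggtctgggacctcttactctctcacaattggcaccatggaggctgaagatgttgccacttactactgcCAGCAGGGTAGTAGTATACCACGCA
Ighv11-2: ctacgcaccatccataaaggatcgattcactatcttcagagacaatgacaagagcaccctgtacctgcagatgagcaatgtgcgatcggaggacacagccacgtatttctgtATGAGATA
Igkv14-126: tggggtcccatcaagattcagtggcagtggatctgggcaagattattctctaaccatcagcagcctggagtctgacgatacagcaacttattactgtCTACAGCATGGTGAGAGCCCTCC
Ighv9-2: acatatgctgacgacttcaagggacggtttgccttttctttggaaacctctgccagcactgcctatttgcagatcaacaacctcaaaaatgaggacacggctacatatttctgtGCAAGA
Igkv12-89: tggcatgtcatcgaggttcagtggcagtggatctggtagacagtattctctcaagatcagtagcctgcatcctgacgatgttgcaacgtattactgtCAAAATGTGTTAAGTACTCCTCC

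In the order shown, the printed bases lie on GRCm38 at chr12:115920279-115920398 (minus strand), chr12:114788372-114788491 (minus strand), chr6:68121708-68121827 (plus strand), chr6:68271148-68271267 (plus strand), chr16:19085017-19085136 (minus strand), chr6:69607275-69607394 (minus strand), chr6:70406469-70406588 (minus strand), chr12:114366521-114366640 (minus strand), chr6:68768555-68768674 (minus strand), chr12:114048241-114048360 (minus strand), chr6:67896523-67896642 (plus strand), chr12:114109001-114109120 (minus strand) and chr6:68834846-68834965 (minus strand). The heavy segments are on the minus strand, and the kappa locus holds 38 segments on the plus and 62 on the minus strand. These bases are the 3′ end of the exon that encodes the V region. In 46 of 113 heavy segments the bases after the last cysteine codon are GCAAGA, and these segments took between 60.2% and 69.2% of the heavy V reads of a mouse. Igkv1-117 and Igkv1-110 are each other's nearest segment, with 97.2% identity over the coding sequence, and differ in the capitals shown. Likeness limits what the counts can separate, since the authors' counting left out reads that map to several places. The median identity to the nearest segment of the same chain was 94.6% for heavy and 94.3% for kappa, and 51 heavy and 47 kappa segments reached 95%. Every window of 100 bases occurred in no other gene's transcript for 75 heavy and 54 kappa segments. For Igkv4-55, 83.9% of windows were unique, and for Ighv1-81, Ighv12-3 and Igkv4-91 all were. Somatic mutation of the expressed genes can also lower mapping and was not measured.

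V segment reads were present in all mice and their sum was lower on average after HBO, but the groups overlapped. Levels are given as CPM, the reads of a segment scaled to a common library size after TMM adjustment. All 216 segments together reached 1546, 916, 608 and 1365 CPM in BLM mice 1 to 4, and 451, 1013 and 351 CPM in BLM+HBO mice 1 to 3. BLM mice averaged 1109 ± 426 CPM (SD, n = 4), whereas 605 ± 357 CPM (SD, n = 3) was the mean after HBO. BLM+HBO 2 lay within the BLM range and the other two BLM+HBO mice lay below it. This sum made up between 0.0356% and 0.152% of a library.

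The heavy, kappa and lambda chains showed the same order of mice at the extremes. Summed heavy V levels were 595, 383, 242 and 567 CPM in BLM and 157, 438 and 133 CPM in BLM+HBO. Summed kappa V levels were 795, 474, 323 and 714 CPM in BLM and 261, 493 and 191 CPM in BLM+HBO. Lambda, the minor light chain of mice, gave 156, 59.5, 42.9 and 84.8 CPM in BLM and 33.7, 81.9 and 27.3 CPM in BLM+HBO. BLM+HBO 3 was lowest for each chain, and BLM+HBO 2 was above BLM 3 for each. The log2 ratio of BLM+HBO to BLM was taken as the difference between mean log2 levels, not from the means in CPM. It was -1.01 for heavy, -0.90 for kappa and -0.85 for lambda. The pooled SD between mice was 0.75, 0.64 and 0.82 on the same scale. A score over the segments was given no test. Each ratio stayed negative without any single mouse, and the heavy ratio ran from -0.68 without BLM+HBO 3 to -1.54 without BLM+HBO 2.

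**Figure D1:**
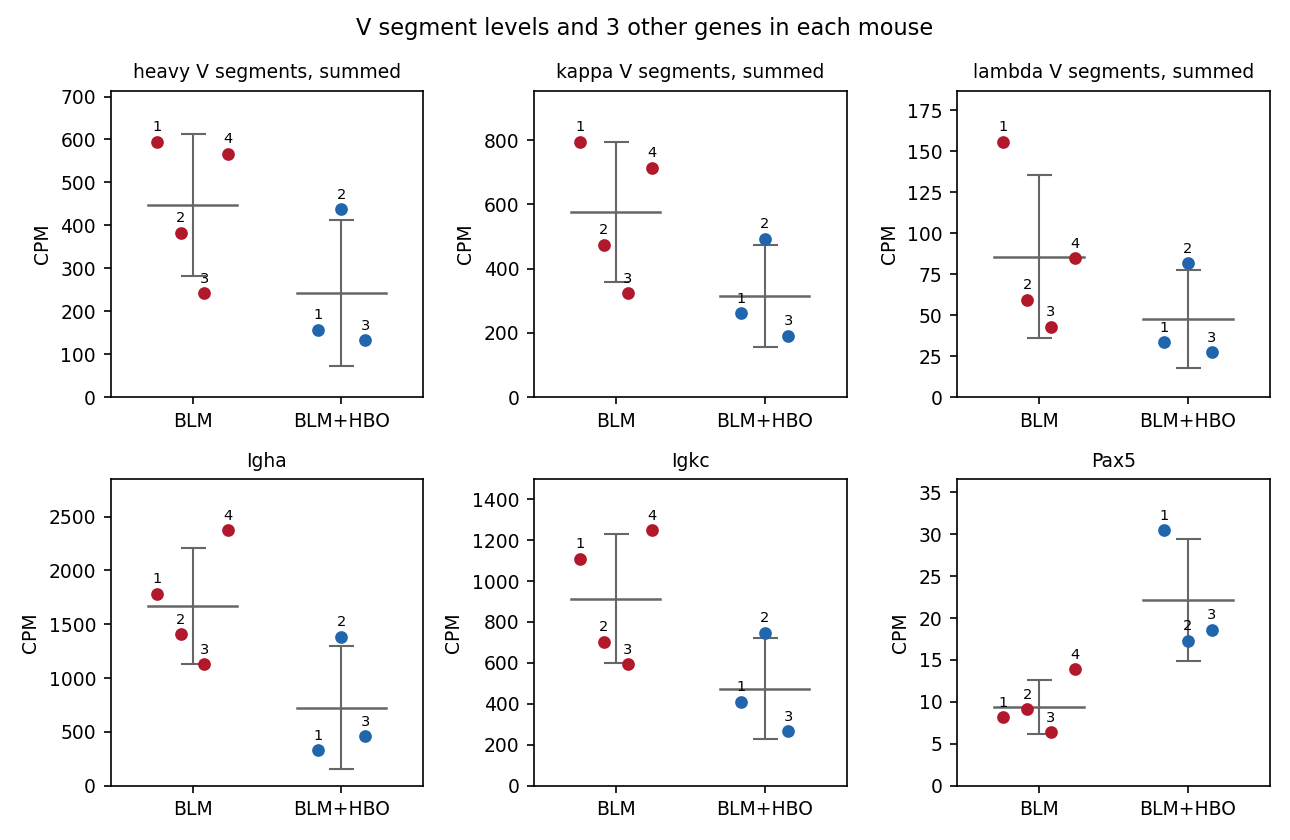
Level in CPM (y axis) of the summed heavy, kappa and lambda V segments and of Igha, Igkc and Pax5 in each mouse. Points are mice, numbered within the group, and bars are the mean ± SD of 4 BLM and 3 BLM+HBO mice. BLM+HBO mice 1 and 3 lie below all BLM mice for the V sums, BLM+HBO 2 lies among them, and Pax5 is higher in all BLM+HBO mice.

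The balance between chains did not separate the groups. Heavy V reads per kappa V read ranged from 0.747 to 0.807 in BLM and from 0.601 to 0.888 in BLM+HBO. Kappa made up between 83.6% and 89.4% of light chain V reads in BLM and between 85.8% and 88.6% in BLM+HBO. Against Igkc, the kappa constant gene, there were 0.544 to 0.716 kappa V reads per Igkc read in BLM and 0.636 to 0.717 in BLM+HBO. Iglv1 took between 69.6% and 91.9% of the lambda V reads of a mouse.

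By family, the mean level was lower in BLM+HBO for most families. Families group V segments of similar sequence. Of 13 heavy families with a mean of at least 1 CPM, 12 had a lower mean in BLM+HBO, and the other, Ighv7, had means of 2.79 CPM in BLM and 3.57 CPM in BLM+HBO. All 17 kappa families at this level had a lower mean in BLM+HBO, although Igkv16 and Igkv19 differed by under 0.05 on the log2 scale. These counts compare means, and a single BLM mouse set the BLM mean of some families. This was BLM 1 for Ighv11 and Ighv12, and BLM 2 for Ighv4 and Igkv11. In Ighv4 and Igkv11 every BLM+HBO mouse was above BLM 1, BLM 3 and BLM 4, at low levels. No family of either chain had groups that did not overlap. The Ighv1 family, the largest with 53 segments, stood at 353, 257, 164 and 325 CPM in BLM and 104, 295 and 82.2 CPM in BLM+HBO. It took between 57.4% and 67.9% of heavy V reads in BLM and between 61.8% and 67.3% in BLM+HBO, so its share overlapped. Igkv1 stood at 162, 102, 137 and 193 CPM in BLM and 58.8, 115 and 48.1 CPM in BLM+HBO. For Igkv4, with 26 segments, the levels were 199, 71.5, 48.4 and 94.1 CPM in BLM and 31.6, 90.7 and 22.4 CPM in BLM+HBO. In both families only BLM+HBO 2 reached into the BLM range.

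Position along the locus did not separate the groups. Segments farthest from the J segments, the last 37 of 113 along the heavy locus, took between 36.0% and 46.3% of heavy V reads in BLM and between 42.4% and 54.1% in BLM+HBO. Plus-strand kappa segments took between 41.3% and 58.5% in BLM and between 45.0% and 53.2% in BLM+HBO. Both ranges overlapped.

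Single segments were compared with edgeR's quasi-likelihood test across all 17465 genes that passed a filter on low counts. A segment was called where the unadjusted P was below 0.05 and the fold change exceeded 1.5. The filter kept 142 segments, of which 72 were heavy, 67 kappa and 3 lambda, and 74 did not pass. Among the 142, 33 were called lower in BLM+HBO, 16 heavy and 17 kappa, which is 23.2% of those tested against 2.89% of all tested genes. No segment was called higher, against 3.4% of all tested genes, although up to 7 were when a mouse was left out. The fold change was negative for 54 of 72 heavy, 52 of 67 kappa and 3 of 3 lambda segments. Median log2 fold changes were -0.94 for heavy, -0.81 for kappa and -0.89 for lambda, and 0.0071 over all tested genes. Segments rise and fall with the same cells, so these counts are not independent.

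No segment passed a Benjamini-Hochberg adjusted P of 0.05 in edgeR, where the lowest adjusted P was 0.423, and no gene of the whole table did. At an unadjusted P below 0.05 edgeR gave 33 segments. DESeq2, the tool of the study, gave an adjusted P for 134 of the tested segments. It was below 0.05 for 8 of them, all lower in BLM+HBO. Of all genes with an adjusted P in DESeq2, 0.501% were below 0.05 and lower. Without the filter on low counts, edgeR tested every segment with a read, which left out only 13 of the 216. Of those tested, 81 were called lower, where the share of all genes was 2.62%, and 14 were called higher, where it was 3.27%. In that fit 31 segments passed an adjusted P of 0.05, 28 lower and 3 higher, as did 1.18% of all genes. DESeq2 called 3 segments higher at the unadjusted limits. Single mice set the count: it fell to 15, with 13 of the original 33, when BLM+HBO 3 was removed, and 7 segments were then called higher. Without BLM 1, 24 were called lower and 5 higher. Removal of BLM+HBO 2 raised the lower calls to 55, with 25 of the 33. Of the 33, 18 reached the lowest BLM level in BLM+HBO 2, 13 did so in BLM+HBO 1 and 7 in BLM+HBO 3.

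**Figure D2:**
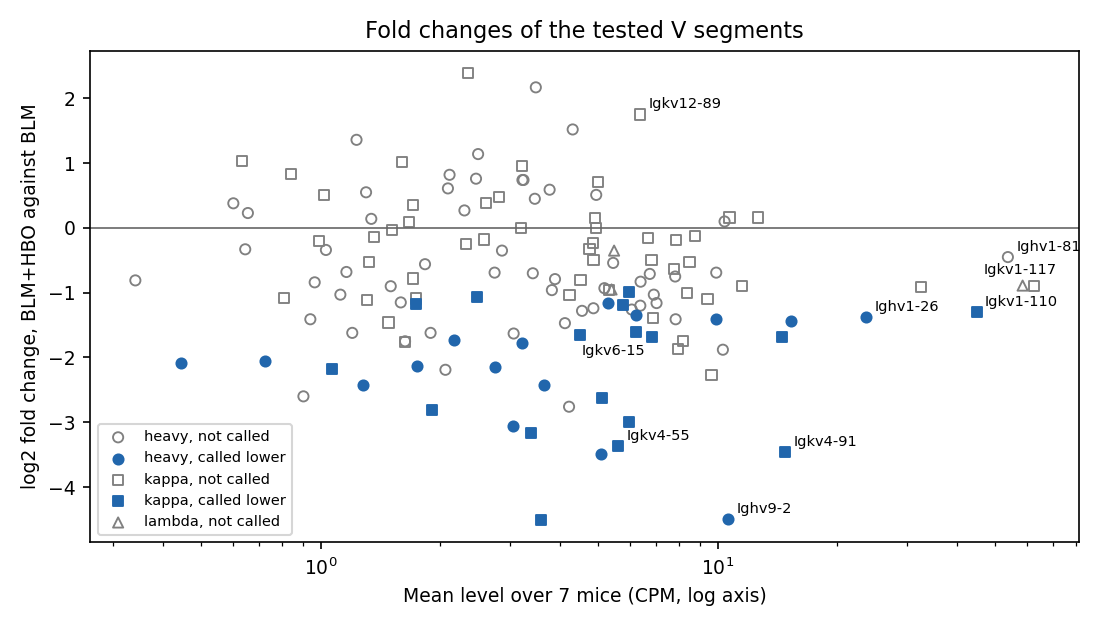
Log2 fold change of BLM+HBO against BLM (y axis) by the mean level over 7 mice in CPM (x axis, log scale) for the 142 tested V segments. Filled symbols are the 33 segments called lower, open symbols are not called, and shapes give the chain. Segments above 0 are open, since none was called higher.

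The groups did not overlap for 11 of the 142 tested segments, all lower in BLM+HBO, against 4.72% of all tested genes. These were 4 of 72 heavy and 7 of 67 kappa segments, so the heavy share was near that of all genes. None lay wholly higher, against 4.05%. All 11 were among the 33 called. They include Igkv4-55, a kappa segment of the Igkv4 family, with the smallest P of all segments. It stood at 3.68, 9.96, 15.0 and 7.99 CPM in BLM and at 0.691, 0.669 and 1.24 CPM in BLM+HBO. Every BLM+HBO mouse was below the lowest BLM mouse. The log2 fold change was -3.37 with an SE of 0.50, the adjusted P was 0.423 in edgeR and 3.37e-10 in DESeq2, and over 13 fits the adjusted P ran from 3.37e-10 to 0.802.

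Igkv6-15 stood at 5.22, 8.05, 9.05 and 12.7 CPM in BLM and at 2.82, 3.35 and 2.43 CPM in BLM+HBO. Its groups were also apart, with a log2 fold change of -1.61 (SE 0.31). The adjusted P for Igkv6-15 was 0.423 in edgeR and 0.000357 in DESeq2, and 0.000357 to 0.802 over the fits. Igkv1-110, the second kappa segment by level, stood at 52.3, 40.6, 96.8 and 51.2 CPM in BLM and at 29.1, 26.7 and 17.6 CPM in BLM+HBO. BLM 3 was highest and all BLM+HBO mice were lower than any BLM mouse. Its log2 fold change was -1.30 (SE 0.30), and -0.98 without BLM 3. The adjusted P for Igkv1-110 was 0.423 in edgeR and 0.00355 in DESeq2, and 0.000513 to 0.802 over the fits.

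Its close relative Igkv1-117 did not pass. It was the most counted kappa segment over the mice, at 96.8, 51.6, 34.5 and 130 CPM in BLM and 19.4, 81.3 and 24.8 CPM in BLM+HBO. The log2 fold change was -0.90 (SE 0.55) with an unadjusted P of 0.136 in edgeR. BLM+HBO 2 lay above 2 BLM mice. Whether the fold changes of Igkv1-110 and Igkv1-117 differ was not tested.

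In the heavy chain, Ighv1-26 stood at 42.0, 27.8, 20.7 and 37.9 CPM in BLM and at 7.34, 19.6 and 10.1 CPM in BLM+HBO. The groups did not overlap, though BLM+HBO 2 was close to BLM 3. Its log2 fold change was -1.38 (SE 0.35), with an adjusted P of 0.423 in edgeR, 0.00997 in DESeq2 and 0.00219 to 0.802 over the fits. Ighv1-81, the most counted heavy segment, was even across the BLM mice, at 61.6, 57.0, 65.0 and 59.4 CPM. In BLM+HBO it stood at 15.8, 102 and 15.5 CPM, so BLM+HBO 2 was above and the other two below every BLM mouse. Its log2 fold change was -0.45 (SE 0.57) with an unadjusted P of 0.452 in edgeR. Without BLM+HBO 2 the log2 fold change of Ighv1-81 was -1.96 and was called.

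The other segments at a DESeq2 adjusted P below 0.05 were Igkv12-44, Ighv1-50, Ighv1-59 and Ighv1-63. Igkv12-44 stood at 7.20, 3.83, 11.1 and 8.20 CPM in BLM and 3.67, 3.30 and 3.03 CPM in BLM+HBO. The lowest BLM mouse was only just above the highest BLM+HBO mouse. Ighv1-59 stood at 9.51, 3.49, 1.32 and 2.10 CPM in BLM and 1.28, 0.860 and 0.674 CPM in BLM+HBO. Ighv1-63 stood at 0.935, 3.32, 1.97 and 1.63 CPM in BLM and 0.0532, 0.717 and 0.300 CPM in BLM+HBO. At these low levels a few reads decide the value, since 3 reads correspond to 0.112 to 0.169 CPM. Ighv1-50 overlapped, with BLM 4 at 1.31 CPM and BLM+HBO 2 at 1.43 CPM. Their DESeq2 adjusted P values lay between 0.0317 and 0.0425, and the edgeR adjusted P was 0.423 for each.

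**Figure D3:**
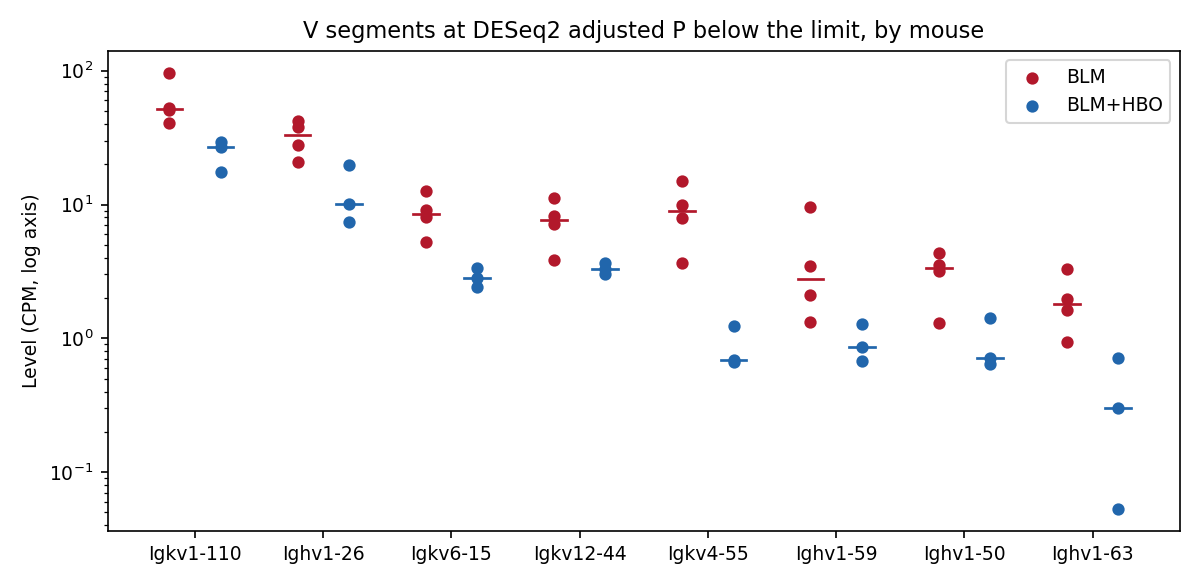
Level in CPM (y axis, log scale) of the 8 V segments at a DESeq2 adjusted P below 0.05, by mouse. Points are mice, 4 BLM and 3 BLM+HBO, and short lines are group medians. The groups are apart for all shown segments except Ighv1-50.

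Among the other called segments, Igkv4-61 stood at 8.85, 6.19, 2.52 and 4.26 CPM in BLM and at 0.691, 1.15 and 0.0374 CPM in BLM+HBO, with no overlap. Igkv6-23 stood at 18.0, 29.4, 4.77 and 30.0 CPM in BLM and at 8.98, 5.97 and 4.31 CPM in BLM+HBO, and Ighv1-15 at 12.9, 5.23, 2.96 and 1.37 CPM against 0.585, 0.669 and 1.80 CPM. Both overlapped. The called segments came from several families, with 9 of 39 tested in Ighv1, 5 of 17 in Igkv4 and 3 of 8 in Igkv6. In the Igkv3 family, 0 of 7 tested segments were called by edgeR, with a median log2 fold change of -0.52.

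The lambda segments were not called. Iglv1 stood at 142, 48.8, 30.3 and 70.4 CPM in BLM and 23.4, 75.2 and 19.4 CPM in BLM+HBO, with a log2 fold change of -0.89 (SE 0.58). Iglv2 had -0.95 (SE 0.56) and Iglv3 -0.35 (SE 0.37). Per kilobase, Iglv1 averaged 150 CPM over the mice, close to the 155 CPM of Igkv1-117 and the 153 CPM of Ighv1-81, and Igkv1-110 averaged 112 CPM.

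Segment use was uneven in every mouse. With equal use, a heavy segment would hold 0.885% and a kappa segment 1% of its chain. Ighv1-81 led the heavy chain in 5 mice, with 10.4%, 14.9% and 26.9% of heavy V reads in BLM 1, 2 and 3, and 23.3% and 11.7% in BLM+HBO 2 and 3. In BLM 4, Ighv9-2 led with 11.4%, ahead of Ighv1-81 at 10.5%. In BLM+HBO 1, Ighv1-55 led with 13.7%, ahead of Ighv1-81 at 10.1%. Exact 95% binomial intervals, which cover counting error only, spanned 25.6% to 28.2% for BLM 3 and 12.5% to 15.0% for BLM+HBO 1.

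In the kappa chain, Igkv1-117 led in 5 mice, with 12.2%, 10.9% and 18.2% of kappa V reads in BLM 1, 2 and 4, and 16.5% and 13.0% in BLM+HBO 2 and 3. Igkv1-110 led in BLM 3, where it took 29.9% (exact interval 28.8% to 31.1%). Igkv12-89 led in BLM+HBO 1 with 11.5% (exact interval 10.6% to 12.4%), just ahead of Igkv1-110 at 11.2%. BLM 3 had the most dominant segment of both chains, Ighv1-81 and Igkv1-110, together with the lowest V sum of the BLM mice.

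The effective number of segments, the inverse Simpson index, is the number of equally used segments that would give the same concentration. For the heavy chain it was 27.7, 20.9, 10.8 and 19.8 in BLM and 22.0, 14.2 and 29.1 in BLM+HBO. For the kappa chain it was 21.3, 24.7, 8.86 and 13.9 in BLM and 21.1, 19.1 and 24.1 in BLM+HBO. The means were 19.8 ± 6.94 (SD, n = 4) and 21.8 ± 7.45 (SD, n = 3) for heavy, and 17.2 ± 7.15 (SD, n = 4) and 21.4 ± 2.52 (SD, n = 3) for kappa. Both ranges overlapped, and the differences were smaller than the pooled SD of 7.16 and 5.77. With each mouse thinned to 2950 heavy or 4905 kappa reads, BLM 3 had 10.7 and 8.86 and BLM+HBO 3 had 29.0 and 24.1 and the order of these mice was the same. The top share averaged 15.9% and 16.2% for heavy, and 17.8% and 13.7% for kappa, in BLM and BLM+HBO.

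Between 6 and 11 heavy segments made up 50% of heavy V reads in the BLM mice, and between 10 and 14 in the BLM+HBO mice. For kappa the ranges were 5 to 9 and 8 to 11. Between 85 and 89 of 113 heavy and between 81 and 88 of 100 kappa segments had a read in a mouse. Of all 216 segments, 142 had a read in every mouse and 13 had none in any. The number of segments with a read was close in all mice.

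**Figure D4:**
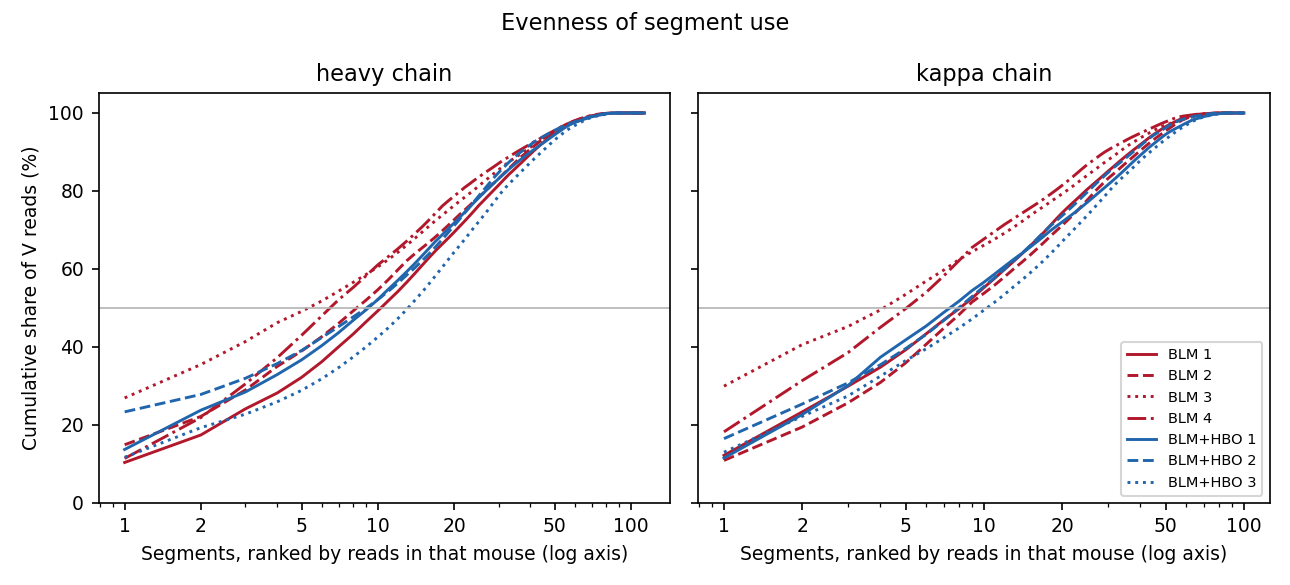
Cumulative share of V reads in percent (y axis) over segments ranked by reads within each mouse (x axis, log scale), for the heavy and kappa chains. Lines are mice, red for BLM and blue for BLM+HBO, and the grey line marks 50%. BLM 3 starts highest in both panels, at 26.9% and 29.9%, and BLM+HBO 3 lies lowest over the middle ranks.

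Pairs of mice shared much of their segment use. The Morisita-Horn index, which is 1 for equal use, had a median of 0.655 over 6 heavy pairs within BLM, 0.754 over 3 pairs within BLM+HBO and 0.705 over 12 pairs between groups. For kappa the medians were 0.647, 0.706 and 0.716. Pairs between groups ranged from 0.603 to 0.922 for heavy and from 0.555 to 0.881 for kappa, and overlapped with the pairs within groups.

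Some segments had most of their reads in a single mouse. By a limit chosen after the values were seen, 32 of the 108 segments with at least 100 reads in a mouse had over 50% of their summed CPM in 1 mouse. There were 12 such segments in BLM 1, 6 in BLM 2, 10 in BLM 4, 1 in BLM+HBO 1 and 3 in BLM+HBO 2, and none in BLM 3 or BLM+HBO 3. They took 20.7% of V reads in BLM 1, 13.1% in BLM 2, 19.7% in BLM 4, 6.64% in BLM+HBO 1 and 3.71% in BLM+HBO 2. A mouse with more V reads reaches the limit of 100 reads more easily, and BLM 1 and BLM 4 had the highest V sums. BLM+HBO 2 had more V reads than BLM 2, at 21202 against 16281, but fewer such segments. Whether the number of V reads sets these counts was not tested.

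BLM 1 stood out by 4 segments, which were named after their values were seen. Ighv12-3 had 725 reads in BLM 1 and 4, 1, 4, 3, 0 and 0 reads in the other mice. Igkv4-91 had 1611 reads in BLM 1 and between 37 and 59 elsewhere. Ighv11-2 had 156 reads in BLM 1 and at most 6 elsewhere, and Igkv14-126 had 412 and at most 17. As background, Ighv12-3 with Igkv4-91 and Ighv11-2 with Igkv14-126 are known heavy and light chain pairings of mouse B-1 cells, whose antibodies bind phosphatidylcholine. All 4 were picked from the segments concentrated in this mouse, and pairing within cells was not measured. The IgM constant gene Ighm stood at 400 CPM in BLM 1, and at 96.2, 52.1 and 111 CPM in the other BLM mice. It was also high in BLM+HBO 1, at 378 CPM, where Ighv12-3 had 3 reads.

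Other mice had different segments. BLM 2 had 442 reads of Igkv11-125, against at most 6 elsewhere, and 462 of Ighv4-1, against at most 30. BLM 4 had 1227 reads of Ighv9-2, against between 13 and 43 elsewhere, 533 of Ighv14-4, 882 of Igkv6-17 and 197 of Ighv5-2. BLM+HBO 1 had 564 reads of Igkv12-89, against at most 82 elsewhere. In BLM+HBO 2, Ighv14-3 had 380 reads, against at most 36. Igkv14-100 had 234 reads and Ighv5-12 172 there.

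These 32 segments enter the fit in part. The filter dropped 6 of the 32, including Ighv12-3 and Ighv11-2, and 8 were among the 33 called lower. For Ighv9-2 the log2 fold change was -4.50 (SE 1.42), and -1.57 without BLM 4, where the groups still did not overlap. For Igkv4-91 it was -3.46 (SE 1.35), and -0.33 and no longer called without BLM 1. Igkv12-89 had a log2 fold change of 1.75 (SE 1.17) that was not called, and -1.64 without BLM+HBO 1. Igkv14-126 had the lowest log2 fold change of all segments, -4.51 (SE 1.64). It was not called without BLM+HBO 1 or without BLM+HBO 3, at -4.53 and -4.19, and did not pass the filter without BLM 1, 2 or 4.

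**Figure D5:**
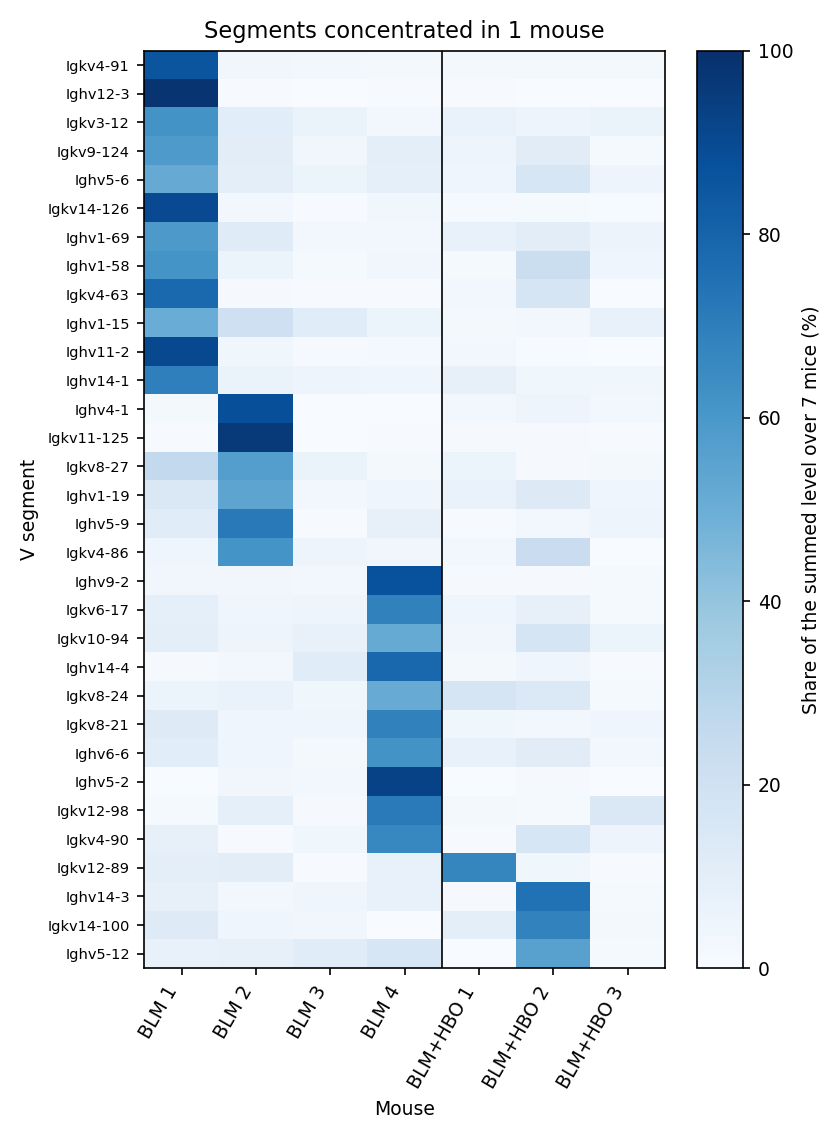
Share of each segment's summed CPM over 7 mice (colour, percent) by mouse (x axis) for the 32 V segments (y axis) with over 50% in 1 mouse. The black line parts BLM from BLM+HBO. Dark cells lie mostly in BLM 1, BLM 2 and BLM 4, with 12, 6 and 10 segments.

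The constant genes of the same chains were compared next. Igha, the heavy constant gene of IgA, stood at 1785, 1405, 1129 and 2374 CPM in BLM and at 332, 1383 and 462 CPM in BLM+HBO. It was called lower with a log2 fold change of -1.20 (SE 0.46), though BLM+HBO 2 was above BLM 3. It made up between 73.7% and 85.6% of heavy constant reads in BLM, and 35.4%, 84.3% and 72.6% in BLM+HBO mice 1 to 3. Of 7 tested heavy constant genes, Igha and Ighg1 were called lower and Ighd higher, where 2.89% of all tested genes were called lower and 3.4% higher. Ighd, the constant gene of IgD on resting B cells, stood at 22.6, 26.1, 22.5 and 31.3 CPM in BLM and at 73.4, 31.7 and 38.5 CPM in BLM+HBO. Of 4 light constant genes, Igkc and Iglc2 were called lower and Iglc3 higher. Igkc, the kappa constant gene, had a log2 fold change of -0.95 (SE 0.37). Reads of Iglc2 and Iglc3, which are close copies, are uncertain.

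B cell genes moved in the other direction to the V sum. Of 15 tested B cell genes, 11 were called higher in BLM+HBO and 0 lower by edgeR. Among all tested genes, 3.4% were called higher and 2.89% lower. The median log2 fold change of the B cell genes was 0.91. Their summed level was 151, 169, 162 and 238 CPM in BLM and 435, 241 and 268 CPM in BLM+HBO. BLM+HBO 1 was thus the highest. Over all the gene lists outside the V segments, calls fell from 35 to 15 without BLM+HBO 1. Pax5, the transcription factor that maintains B cell identity, stood at 8.19, 9.12, 6.36 and 13.9 CPM in BLM and at 30.5, 17.3 and 18.6 CPM in BLM+HBO. The groups did not overlap, and the log2 fold change was 1.23 (SE 0.28). Ms4a1, a surface protein of B cells, had a log2 fold change of 1.05 (SE 0.35), and its groups overlapped. The adjusted P was 0.423 in edgeR for both Pax5 and Ms4a1.

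Of 11 tested plasma cell genes, none met both the P and the fold change limit in edgeR in either direction, with a median log2 fold change of -0.19. The fold change was negative for 7 of the 11. It was not negative for Mzb1 (0.48, SE 0.54), Tent5c (0.20, SE 0.11), Irf4 (0.10, SE 0.28) and Prdm1 (0.0095, SE 0.25). Xbp1, a transcription factor of antibody-secreting cells, stood at 297, 278, 277 and 294 CPM in BLM and at 198, 276 and 219 CPM in BLM+HBO. The groups did not overlap, and its log2 fold change was -0.31 (SE 0.13) with an unadjusted P of 0.0389 and an adjusted P of 0.455 in edgeR. Txndc5, a protein of the endoplasmic reticulum, was also lower in each BLM+HBO mouse than in each BLM mouse, with a log2 fold change of -0.19 (SE 0.11) and an unadjusted P of 0.10 in edgeR. Many of them, such as Xbp1 and Sdc1, are also expressed by other lung cells. Jchain, which joins IgA and IgM into polymers, stood at 453, 324, 305 and 679 CPM in BLM and at 142, 412 and 134 CPM in BLM+HBO. Its log2 fold change was -0.94 (SE 0.42) with an unadjusted P of 0.0523 in edgeR. Tnfrsf17, the plasma cell receptor BCMA, was at 1.16 CPM or below in every mouse.

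Genes of early B cell development were low. All 6 genes of V(D)J recombination and the surrogate light chain were under 1 CPM in every mouse, with Rag1 at most at 0.110 CPM. Of 9 tested genes of the germinal centre and B cell help, Cxcl13, a B cell attractant, was called lower (log2 fold change -0.75, SE 0.32) and its receptor Cxcr5 higher (1.12, SE 0.31). Of 9 tested genes of B cell survival and antibody transport, Pigr, which carries IgA across the epithelium, was called higher with a log2 fold change of 0.82 (SE 0.24) and the others were not called. None of 3 tested genes of lymphoid tissue stroma and vessels and none of 3 thymocyte genes met both the P and the fold change limit in edgeR. Of 11 tested T cell genes, 3 were called higher and 0 lower, and of 10 lung genes, 2 higher and 0 lower. Over all tested genes, 3.4% were called higher and 2.89% lower.

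The heart muscle genes summed to between 72.5 and 195 CPM in BLM and between 172 and 739 CPM in BLM+HBO, so the sums overlapped. Among them, Myh6 stood at 12.3 CPM or more in every mouse. Myl2 was at 0.319 CPM or below, and at 0 CPM in BLM 3 and BLM+HBO 2. The part of tissue composition in the V segment levels was not tested.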

How the data were processed

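RNA of 7 right lung lobe samples, 1 per mouse, was sequenced as paired ends. The authors trimmed the reads, mapped them to GRCm38 with HISAT2 2.2.0 (version per the submitters' processing notes) and counted reads per gene with featureCounts. Its default settings ignore the strand and drop multi-mapping reads. The deposited values are these raw counts. The annotation release was not given in the sources used here, and symbols, gene types and sequences came from GENCODE vM21, whose coordinates matched those of the V segments. Groups came from the sample titles.

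Low counts were removed by filterByExpr with a minimum count of 10 and a minimum total of 15. Libraries were scaled by TMM (factors 0.964 to 1.04) and fitted with the quasi-likelihood test of edgeR 4.0.16 in R 4.3.3 over 17465 genes, with Benjamini-Hochberg adjustment over all of them. The common biological coefficient of variation was 0.222. DESeq2 1.42.0, other scalings and filters, a replicate block and leaving out each mouse were alternatives. The fit was tested on simulated data. The members, gene lists and tests were chosen with earlier results of these data known. By rule, 22 segments were named. They were the 5 highest heavy and kappa segments, all lambda segments and the most counted segment of each mouse. Up to 10 called per direction by smallest P, and those at an adjusted P below 0.05, were added. Segments concentrated in 1 mouse were named outside this rule, after their values were seen. Up to 4 genes of each other list and all constant genes could be named, and for plasma cell genes this limit was exceeded. Replicate numbers were not treated as pairs, with correlations of same-numbered deviations of -0.00797, -0.066 and 0.161. The depth limits a single segment to steps of a read, and 3 reads correspond to 0.112 to 0.169 CPM. P values weigh a group difference against the spread between these mice, estimated with information shared across genes. That spread may be partly technical.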

Additional observations from a re-analysis of the deposited data

Results flagged for a closer look

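Among 41 sets of values examined in the 4 BLM mice (chain sums, evenness, named segments and constant genes, levels as log2 of CPM + 0.5), 3 had a mouse far from the others. The limit corresponds to about 1 in 20 by chance. This rate does not apply to the named segments, which were chosen by their values in these same mice. For Ighv9-2, BLM 4 was far above the rest, with a gap to its neighbour of 0.981 of the group's range. For Igkv4-91, BLM 1 was far above the rest, with a gap of 0.916 of the range. For the lambda constant gene Iglc2, BLM 4 was highest, with a gap of 0.863 of the range.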

How the results depend on the processing

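The 33 segments called lower became 81 without the filter on low counts and between 15 and 55 when a mouse was left out, and were otherwise within 1.5 times of 33. The 0 called higher became 3 with DESeq2, 14 without the filter, 1 with the replicate block and between 0 and 7 without a mouse. The 0 at an adjusted P below 0.05 became 8 with DESeq2, 31 without the filter and between 0 and 4 without a mouse. Without the filter more segments were tested, and the fit of segments tested both ways also changed. For Igkv14-126 the log2 fold change was -4.51 (SE 1.64) with the filter and -4.52 (SE 0.96) without it. The cause was not tested. The replicate block left 32 called lower, of which 22 were among the 33, and the numbers did not pair the mice. Called genes of the other lists numbered 35, and between 15 and 42 without a mouse. The chain ratios and evenness differences moved by less than the spread between mice under every alternative, including reads per kilobase, which was chosen after seeing the data. The differences in effective number and top share changed sign for the heavy chain when some mice were left out (-1.06 without BLM 3 and -1.70 without BLM+HBO 3 for the effective number), and the heavy top share also did so without each mouse's leading segment (-1.29) and per kilobase (-0.275). Of the 22 segments named by rule, 14 were called, none of which reversed, and 11 were called in every alternative that gave a value. Ighv1-55, at 0.10 and not called, ran from -0.85 without BLM+HBO 1 to 0.48 without BLM 4 and was -0.10 without BLM 3. Igkv12-89 ran from -1.64 without BLM+HBO 1 to 2.31 without BLM+HBO 3.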
